A study of Mus musculus with 6 samples.

Results

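The 10 genes described here are keratins of the epithelia that cover the surface of the eye, the cornea and the conjunctiva. They are Krt4, Krt5, Krt6a, Krt6b, Krt12, Krt13, Krt14, Krt15, Krt17 and Krt19. They were taken by symbol from a deposited table of 14002 distinct gene symbols, which lists 18 keratins in all. The set was proposed with its values in these same libraries known, so the levels of the members and their differences between the times are given as a description and were not tested.

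The libraries came from retinal pigment epithelium (RPE), the pigmented cell layer behind the photoreceptors, of male C57BL/6J mice aged 8 to 10 weeks. C57BL/6J is an inbred laboratory strain, and the labels give no allele or drug. Eyes were taken at circadian time CT1 (3 libraries) and at CT23 (3 libraries), 2 h apart around subjective dawn, and each library pooled 2 RPE samples. Per the labels' protocols the front of the eye was cut away and the neural retina peeled off, and RPE cells were freed by brief sonication from the remaining cup of RPE, choroid and sclera, so the samples are enriched for RPE and not pure. The labels do not say which mice gave which library, so the spread between libraries may hold technical as well as biological variation.

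Keratins are the filament proteins of epithelial cells. A type I keratin pairs with a type II keratin to build a filament, and each kind of epithelium, and each layer within it, uses its own pairs. Krt5 (type II) and Krt14 (type I) form the pair of basal cells in stratified epithelia, and Krt15 is a further type I keratin of basal cells. Krt12 is the type I keratin by which corneal epithelium is recognised. Krt4 and Krt13 are the pair of the upper layers of wet stratified epithelia such as conjunctiva and oesophagus, and Krt19 is found in conjunctiva and in many simple epithelia. Krt6a, Krt6b and Krt17 are keratins of hair follicles and of skin that is wounded or proliferating.

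The genes lie in the 2 keratin clusters of the mouse genome, all on the minus strand (coordinates of mm10 from GENCODE M21, counted from 1). The 6 type I members are on chromosome 11, among them Krt12 (99415666 to 99422259), Krt13 (100117327 to 100121566), Krt15 (100131758 to 100135928) and Krt19 (100140810 to 100148665), followed by Krt14 (100203162 to 100207548) and Krt17 (100256217 to 100261029). The 4 type II members are on chromosome 15, where Krt6b (101676023 to 101680287), Krt6a (101689910 to 101694307) and Krt5 (101707070 to 101712898) are neighbours and Krt4 (101918535 to 101924735) lies beyond them. The values are given by gene, so exons and untranslated regions cannot be told apart.

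Because the members share a gene family and a large part of their profile across the libraries, the bases before their transcription starts are shown for 3 of them, each standing for one kind of epithelial layer: Krt5 (basal), Krt12 (cornea) and Krt13 (upper mucosal layers). RefSeq promoter sequences were matched for 4 of the 10 members, in 5 windows. The windows of Krt14 and of a second Krt13 start lie inside the GENCODE genes and were searched but are not shown. Shown are the 250 bases before the RefSeq start, 5′ to 3′ on the minus strand (build GRCm38.p6), at chr15:101712906-101713155 for Krt5, chr11:99422260-99422509 for Krt12 and chr11:100121567-100121816 for Krt13. The start was the 5′ end of the GENCODE gene for Krt12 and Krt13. For Krt5 the RefSeq start was at 101712905 and the GENCODE end at 101712898. Capitals mark the motifs searched.
Krt5: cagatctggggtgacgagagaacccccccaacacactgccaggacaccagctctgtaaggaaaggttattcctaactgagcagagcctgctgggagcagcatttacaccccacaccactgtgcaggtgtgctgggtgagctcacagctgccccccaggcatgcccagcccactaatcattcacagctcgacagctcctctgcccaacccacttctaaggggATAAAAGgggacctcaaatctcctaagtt
Krt12: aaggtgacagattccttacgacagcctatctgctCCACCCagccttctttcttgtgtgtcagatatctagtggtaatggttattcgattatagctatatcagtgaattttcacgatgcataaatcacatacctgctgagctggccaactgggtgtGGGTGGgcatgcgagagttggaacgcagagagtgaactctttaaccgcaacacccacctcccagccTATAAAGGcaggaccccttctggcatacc
Krt13: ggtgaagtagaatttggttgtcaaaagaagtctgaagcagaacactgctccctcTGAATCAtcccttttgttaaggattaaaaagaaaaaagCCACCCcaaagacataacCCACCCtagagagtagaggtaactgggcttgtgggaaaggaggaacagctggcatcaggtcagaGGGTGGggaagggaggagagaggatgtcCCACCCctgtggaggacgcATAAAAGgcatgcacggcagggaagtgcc
All motifs were searched on both strands. The core promoter box was searched as TATAAA. A looser form of that box, ATAAANG, was added after these sequences had been read and overlaps it. The site of AP-1 factors was searched as TGANTCA, that of KLF factors as CCACCC and that of AP-2 factors as GCCNNNGGC. Each of the 3 windows held ATAAANG, at -29 to -23 in Krt5, at -28 to -22 in Krt12 and at -29 to -23 in Krt13, counted back from the base before the start. In Krt12 it overlapped the stricter box at -29 to -24. Over 32851 promoter windows of the same length, 11.6% held ATAAANG and 12.4% held TATAAA. The KLF letters CCACCC, present in 28.1% of all windows, were found in Krt12 (2 matches) and Krt13 (4 matches), and once in the Krt14 window. TGANTCA, present in 6.75%, was found in Krt13 and, with 2 matches, in the second Krt13 window, and GCCNNNGGC, present in 13.7%, was found in none of the 3. The 2 windows not shown held neither form of the core box. These matches describe letters and show no binding.

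The library kit reads the 3′ end of each transcript, whatever the transcript's length. Levels are CPM, in which each gene's reads are divided by the library total, and were therefore compared between genes without division by length. The totals lay between 12612330 and 13651486 reads, so 1 read was worth 0.0733 to 0.0793 CPM. The listed genes took 12.7% to 32.3% of the totals. Crystallins, the proteins of the lens, took 0.233% to 1.93% of the total in the CT1 libraries and 19.8%, 18.0% and 2.34% in CT23 replicates 1, 2 and 3, so CT23 replicates 1 and 2 stood apart from the other 4 libraries. RPE markers were present in every library. The summed level of 8 of them was 1143, 1449 and 1031 CPM in CT1 replicates 1, 2 and 3 and 1102, 979 and 828 CPM in CT23 replicates 1, 2 and 3, and Rpe65, the retinoid isomerase of the RPE, averaged 108 ± 16.6 CPM at CT1 and 88.1 ± 15.6 CPM at CT23 (SD, n = 3 each).

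Keratin transcripts were abundant in these RPE-enriched libraries. The 10 members together reached 2443, 1633 and 2176 CPM in CT1 replicates 1, 2 and 3, against 916, 1365 and 1847 CPM in CT23 replicates 1, 2 and 3. The times overlapped, since CT1 replicate 2 lay below CT23 replicate 3, and the highest library held 2.67 times the level of the lowest. Ranked by mean CPM over the 6 libraries among 14008 named entries, Krt15 was 23rd, Krt6b 32nd, Krt12 37th and Krt5 55th. In bulk samples, fewer epithelial cells and less keratin RNA per cell cannot be told apart.

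**Figure D1:**
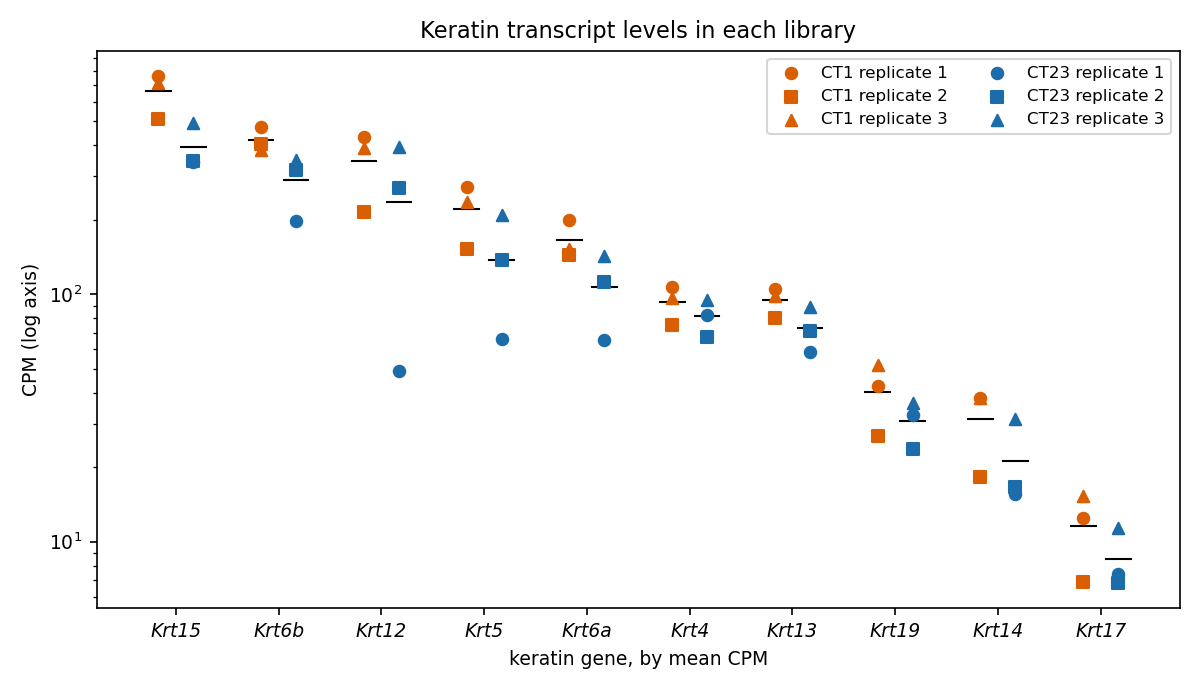
CPM of each keratin in each of the 6 libraries on a log axis, with genes ordered by mean CPM; black lines are means of the 3 CT1 libraries (left of each pair) and the 3 CT23 libraries (right). For Krt12, CT23 replicate 1 sits at 49.1 CPM, far below the other 5 libraries at 215 to 431 CPM.

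By mean level over the 6 libraries the order was Krt15 (527 CPM), Krt6b (355), Krt12 (291), Krt5 (179), Krt6a (136), Krt4 (87.2), Krt13 (83.7), Krt19 (35.6), Krt14 (26.3) and Krt17 (10.0 CPM). Of the neighbours in this order, Krt4 and Krt13 exchanged places between libraries, with Krt4 the higher in 3 of 6. Krt6b exceeded Krt12 in 4 of 6 libraries, and Krt12 exceeded Krt5, and Krt6a exceeded Krt4, in 5 of 6. The other 5 neighbouring pairs kept their order in all 6 libraries.

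Among the basal keratins, Krt15 was the most abundant member in every library. It was at 761, 509 and 715 CPM in CT1 replicates 1, 2 and 3, against 341, 344 and 491 CPM in CT23 replicates 1, 2 and 3. All 3 CT1 libraries lay above all 3 CT23 libraries, with CT1 replicate 2 and CT23 replicate 3 close to each other. Its log2 fold, CT1 minus CT23 on the log2(CPM + 1) scale, was 0.75 (SE 0.238).

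Krt5, the type II partner in basal cells, was at 271, 152 and 237 CPM in CT1 replicates 1, 2 and 3, against 66.1, 138 and 208 CPM in CT23 replicates 1, 2 and 3. The times overlapped, and CT23 replicate 1 was the lowest library (log2 fold 0.78, SE 0.396). Krt14, its type I partner, was far less abundant, at 38.0, 18.2 and 38.1 CPM in CT1 replicates 1, 2 and 3 and 15.6, 16.7 and 31.2 CPM in CT23 replicates 1, 2 and 3. Here CT1 replicate 2 lay with CT23 replicates 1 and 2, and CT23 replicate 3 lay with the other CT1 libraries (log2 fold 0.54, SE 0.331). Krt5 thus stood at 4.24 to 8.36 times the CPM of Krt14, with the lowest ratio in CT23 replicate 1.

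Krt12, the corneal keratin, varied most among the members. It was at 431, 215 and 389 CPM in CT1 replicates 1, 2 and 3, against 49.1, 268 and 393 CPM in CT23 replicates 1, 2 and 3. CT23 replicates 2 and 3 lay within the range of the CT1 libraries, and CT23 replicate 1, with 670 reads, lay below it; the highest library held 8.78 times its level. The log2 fold was 0.93 with an SE of 0.691, and it was 0.03 without CT23 replicate 1. On whole reads recovered from the CPM the Krt12 fold was 0.56 by edgeR and 0.58 by DESeq2, below that of Krt15 (0.77 and 0.79). An annotated antisense gene, A830036E02Rik, overlaps Krt12 on the plus strand. Its level was 9.44, 3.73 and 9.11 CPM in CT1 replicates 1, 2 and 3 and 0.733, 5.30 and 9.09 CPM in CT23 replicates 1, 2 and 3, which is 1.49% to 2.34% of the Krt12 level in the same library. The sources used here do not say whether reads were counted by strand, so reads of the 2 genes cannot be told apart.

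The keratins of the upper mucosal layers were the steadiest across libraries. Krt13 was at 105, 80.3 and 97.9 CPM in CT1 replicates 1, 2 and 3, against 58.6, 71.3 and 88.5 CPM in CT23 replicates 1, 2 and 3 (log2 fold 0.38, SE 0.171). Its partner Krt4 was at 107, 74.8 and 96.3 CPM in CT1 replicates 1, 2 and 3, against 82.6, 66.9 and 95.2 CPM in CT23 replicates 1, 2 and 3 (log2 fold 0.18, SE 0.174). The times overlapped for both, and CT23 replicate 1, the lowest library for Krt13, was above CT1 replicate 2 for Krt4. Krt19 was at 42.7, 26.8 and 51.8 CPM in CT1 replicates 1, 2 and 3, against 32.5, 23.7 and 36.3 CPM in CT23 replicates 1, 2 and 3 (log2 fold 0.35, SE 0.244). It also overlapped, with CT1 replicate 2 and CT23 replicate 2 lowest.

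Of the keratins of wounded or proliferating epithelium, Krt6b and Krt6a were lower in CT23 replicate 1 than in every other library. In this group Krt6b was at 474, 405 and 383 CPM in CT1 replicates 1, 2 and 3, against 197, 318 and 350 CPM in CT23 replicates 1, 2 and 3 (log2 fold 0.58, SE 0.236). Krt6a was at 200.3, 144 and 153 CPM in CT1 replicates 1, 2 and 3, against 65.3, 112 and 143 CPM in CT23 replicates 1, 2 and 3 (log2 fold 0.68, SE 0.274). In both genes all CT1 libraries lay above all CT23 libraries, for Krt6a by less than 1 CPM. Krt17 was the scarcest member, at 12.5, 6.90 and 15.3 CPM in CT1 replicates 1, 2 and 3, against 7.40, 6.84 and 11.4 CPM in CT23 replicates 1, 2 and 3 (log2 fold 0.36, SE 0.276), and its times overlapped.

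Krt6a and Krt6b are close paralogs, so the ends of the transcripts were searched for identical runs of bases. Near matches were not searched, and the assignment of reads was not tested. None of the 451 runs of 50 bases in the last 500 bases of either transcript occurred, on the sense strand, in a GENCODE M21 transcript of another gene. The same held for the other members except Krt14 and Krt17, where 9.53% of the runs in each were shared with the other or with Krt16. The level of Krt6a was 0.332 to 0.422 times that of Krt6b in the 6 libraries.

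**Figure D2:**
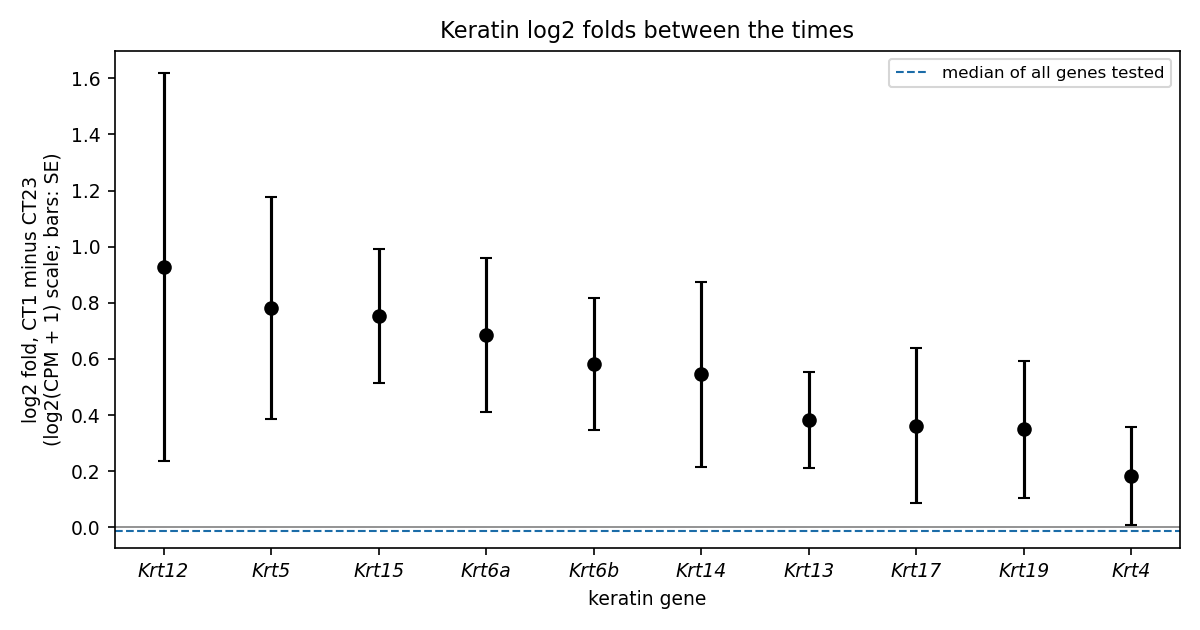
Log2 fold of each keratin, CT1 minus CT23 on the log2(CPM + 1) scale, with SE from the fit over 11342 genes (3 libraries per time); the dashed line is the median of all genes tested. The 10 folds lie above 0, from 0.18 for Krt4 to 0.93 for Krt12, and the SE of Krt12 is the widest.

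Set against each other, 10 of 10 members had a log2 fold above 0, where 47.8% of the 11342 genes tested (mean level 1 CPM or more) did, and their median was 0.56 where that of all genes was -0.014. All CT1 libraries lay above all CT23 libraries for 3 of 10 members (Krt15, Krt6b and Krt6a), beside 11.3% of all genes. This count was 9 of 10 without CT1 replicate 2 (17.2% of all genes) and 6 of 10 without CT23 replicate 3 (15.7%). It was 3 of 10 without any one of the other 4 libraries (15.4% to 16.4%). With TMM scaling factors it was 2 of 10 (12.55%), and with totals that leave out the crystallin reads also 2 of 10 (3.36%). Since the members were chosen from this contrast, nothing is read from these counts. All 10 folds stayed above 0 with any 1 library left out. Without both CT23 libraries rich in crystallin reads, replicates 1 and 2, the median fold was 0.06, 6 of 10 members were above 0 and 3 of 10 did not overlap (28.8% of all genes). Without CT23 replicate 1 alone the median was 0.33. With totals that leave out the crystallin reads the median was 0.37, with the median of all genes at -0.17, and Krt4 was at -0.010.

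The fold of every member moved when 1 library was left out. Krt15 ran from 0.64 to 0.93, and was at 0.41 without both CT23 replicates 1 and 2. Krt5 was at 0.33 without CT23 replicate 1 and at 1.15 without CT23 replicate 3, and Krt12 at 0.03 and 1.51 without the same libraries. Krt6a (0.37 and 0.93), Krt6b (0.33 and 0.74) and Krt13 (0.24 and 0.53) also had their extremes without these 2. Krt14 ran from 0.37 without CT23 replicate 1 to 0.89 without CT1 replicate 2. Krt4 ran from 0.05 without CT23 replicate 2 to 0.33 without CT1 replicate 2. Krt17 (0.14 and 0.66) and Krt19 (0.15 and 0.61) were lowest without CT1 replicate 3 and highest without CT1 replicate 2.

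With limma at an adjusted p of 0.05, 0 of the 11342 genes (0%) passed, where 2469 (21.8%) had an unadjusted p under 0.05. Whole reads were recovered from the CPM, and on them 0 genes passed edgeR's quasi-likelihood test (2464 unadjusted) and 138 passed DESeq2 (1343 unadjusted).

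The libraries differed not only in how much keratin they held but in which keratins. Krt12 made up 17.6%, 13.2% and 17.9% of the reads of the 10 keratins in CT1 replicates 1, 2 and 3, against 5.36%, 19.6% and 21.3% in CT23 replicates 1, 2 and 3. The value of CT23 replicate 1 had a 95% Wilson interval of 4.98% to 5.77%, and the lowest of the other libraries, CT1 replicate 2, one of 12.7% to 13.6% (counting error only). The Krt12 share was thus low in 1 library.

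The other shares in that library moved in both directions. In CT23 replicate 1, Krt4 made up 9.03% of the keratin reads, where it was 4.38% to 5.15% in the other 5 libraries, and Krt19 made up 3.55%, where it was 1.64% to 2.38%. Krt5 made up 7.23%, where it was 9.34% to 11.3%, and Krt14, at 1.70%, lay within the 1.12% to 1.75% of the others. A share also moves when another gene of the total does, so the shares were taken again over the 9 members without Krt12. There Krt4 was at 9.54% in CT23 replicate 1 (5.28% to 6.55% in the other 5), Krt19 at 3.75% (1.89% to 2.90%) and Krt5 at 7.63% (10.8% to 14.3%). Krt15, the largest share, was at 37.3% of all 10 members in CT23 replicate 1 (25.2% to 32.8% in the other 5) but at 39.4% of the 9, within the 31.3% to 40.0% of the others. Krt12 was at 0.594 times the CPM of Krt4 in CT23 replicate 1 and at 2.87 to 4.12 times in the other 5. By contrast Krt6a over Krt6b moved by 1.27 times between the highest and lowest library, Krt4 over Krt13 by 1.51 and Krt19 over Krt4 by 1.52.

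**Figure D3:**
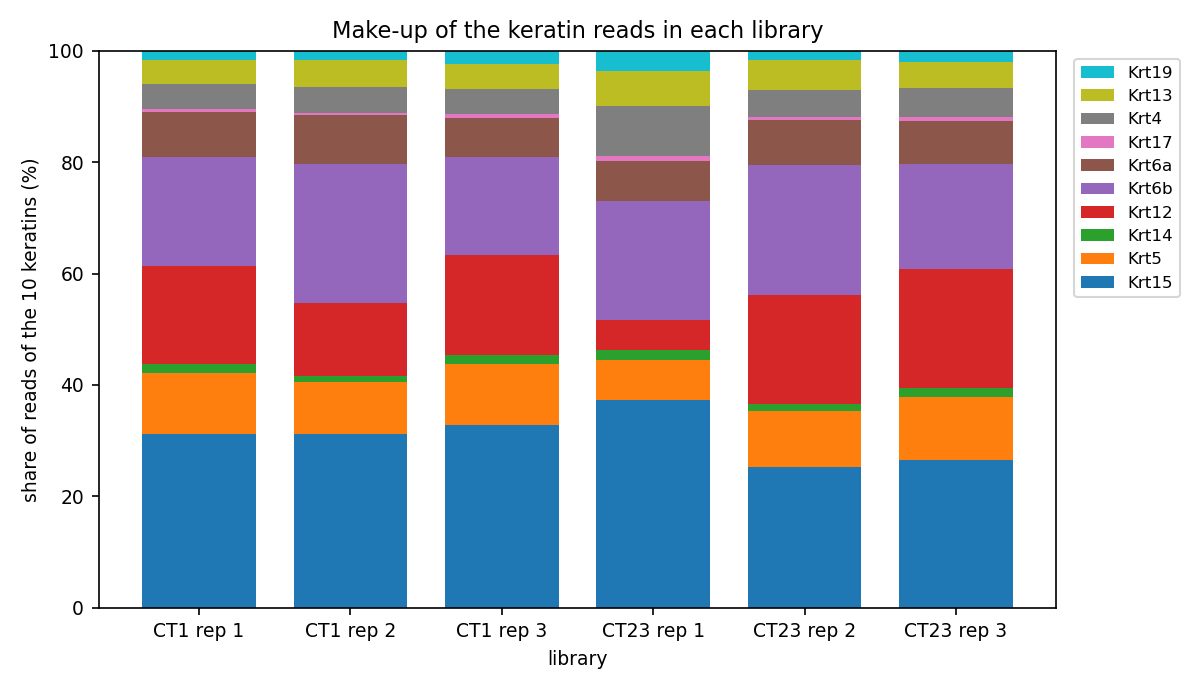
Share of each gene in the reads of the 10 keratins (percent, stacked bars), by library, with CT1 left of CT23. Krt12 takes 5.36% of the bar of CT23 replicate 1 and 13.2% to 21.3% of the others, while Krt4 takes 9.03% and 4.38% to 5.15%.

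The 8 keratins of the table that are not members were lower and flatter in sum, though not gene by gene. Their sum was 68.1, 64.7 and 56.9 CPM in CT1 replicates 1, 2 and 3, against 51.0, 55.3 and 57.7 CPM in CT23 replicates 1, 2 and 3, and the highest library held 1.33 times the lowest. None of the 6 with a mean of at least 1 CPM passed limma (smallest adjusted p = 0.369). Of these, 0 had an unadjusted p under 0.05 (21.8% of all genes, either direction). A fold above 0 was found in 5 (47.8% of all genes), and the median log2 fold was 0.17. Krt7 and Krt18, keratins of simple epithelia, averaged 18.3 ± 1.45 and 12.8 ± 1.44 CPM at CT1, against 16.1 ± 1.61 and 11.2 ± 0.444 CPM at CT23 (SD, n = 3 each). Krt7, Krt80 and Krt18 each had a mean over the 6 libraries above that of the member Krt17. Krt80 varied by 2.41 times between its highest and lowest library, and Krt6b also by 2.41. Krt80 thus varied more than Krt15 (2.23), Krt17 (2.23), Krt19 (2.18), Krt13 (1.80) and Krt4 (1.60). It varied less than Krt12 (8.78), Krt5 (4.09), Krt6a (3.07) and Krt14 (2.44). Krt80 had a log2 fold of 0.35 and Krt10, a keratin of the epidermis, one of -0.21. Of the 6 epidermis markers, Krt10 was the one listed, at 4.07 to 6.37 CPM.

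Genes of desmosomes and the cornified envelope put the libraries in the same order as the members did. The 14 listed genes of desmosomes, the junctions that anchor keratin filaments, and of the envelope that hardens surface cells summed to 332, 203 and 279 CPM in CT1 replicates 1, 2 and 3, against 88.8, 192 and 275 CPM in CT23 replicates 1, 2 and 3. All 13 tested were lowest in CT23 replicate 1, as were 7 of the 10 members and 24.6% of all genes. None passed limma (smallest adjusted p = 0.141), and 2 of 13 had an unadjusted p under 0.05 (21.8% of all genes, either direction). A fold above 0 was found in 13 of 13 (47.8% of all genes), with a median of 0.60. Dsp, which encodes desmoplakin, the link between desmosome and keratin, was at 86.3, 47.0 and 76.7 CPM in CT1 replicates 1, 2 and 3, against 14.5, 41.6 and 61.9 CPM in CT23 replicates 1, 2 and 3 (log2 fold 0.99, limma adjusted p = 0.263). Ppl, Jup and Perp, further genes of the same structures, had log2 folds of 0.58, 0.10 and 0.62 (limma adjusted p = 0.265, 0.919 and 0.291).

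Other genes of corneal and conjunctival epithelium, 18 of 21 listed, summed to 823, 544 and 694 CPM in CT1 replicates 1, 2 and 3, against 267, 484 and 653 CPM in CT23 replicates 1, 2 and 3. All 18 had a fold above 0 (47.8% of all genes), with a median of 0.64. An unadjusted p under 0.05 was found in 5 of 18 (21.8% of all genes, either direction), and none passed limma (smallest adjusted p = 0.125). Muc4, a membrane mucin, averaged 135 ± 19.6 CPM at CT1 and 94.8 ± 23.8 CPM at CT23 (SD, n = 3 each; log2 fold 0.53, limma adjusted p = 0.180). Aldh3a1, an aldehyde dehydrogenase abundant in cornea, was at 131, 69.3 and 137 CPM in CT1 replicates 1, 2 and 3 and at 27.9, 84.0 and 125 CPM in CT23 replicates 1, 2 and 3 (log2 fold 0.68, limma adjusted p = 0.461). As for Krt12, CT23 replicate 1 was lowest and CT1 replicate 2 next. Psca and Upk1b, surface proteins, had log2 folds of 0.52 and 0.53 (limma adjusted p = 0.233 and 0.264).

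Transcription factors of surface epithelia were mixed in fold, with 5 of 9 above 0 (47.8% of all genes) and a median of 0.11. None passed limma (smallest adjusted p = 0.172), and 1 had an unadjusted p under 0.05 (21.8% of all genes, either direction). The 10 listed summed to 349, 249 and 319 CPM in CT1 replicates 1, 2 and 3. In CT23 replicates 1, 2 and 3 they summed to 205, 231 and 299 CPM, the same library order as the keratins. Klf5 and Klf4, zinc finger factors of stratified epithelia, had log2 folds of 0.68 and 0.69 (limma adjusted p = 0.172 and 0.295). Pax6 and Tfap2b were at -0.007 and -0.040 (limma adjusted p = 0.980 and 0.843). Trp63 and Tfap2a were the others below 0, at -0.042 and -0.17 (limma adjusted p = 0.947 and 0.385). The 8 tested genes of hemidesmosomes, which fix basal cells to their matrix, had a median of 0.23, and none passed limma (smallest adjusted p = 0.343; 0 unadjusted). They summed to 142, 120.3 and 157 CPM in CT1 replicates 1, 2 and 3, against 102, 123 and 138 CPM in CT23 replicates 1, 2 and 3, an order that differed from that of the keratins, with CT1 replicate 3 highest and CT1 replicate 2 below CT23 replicate 2. Dst, Cd151 and Plec were at 0.19, 0.21 and 0.28 and Itga6 at 0.039.

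**Figure D4:**
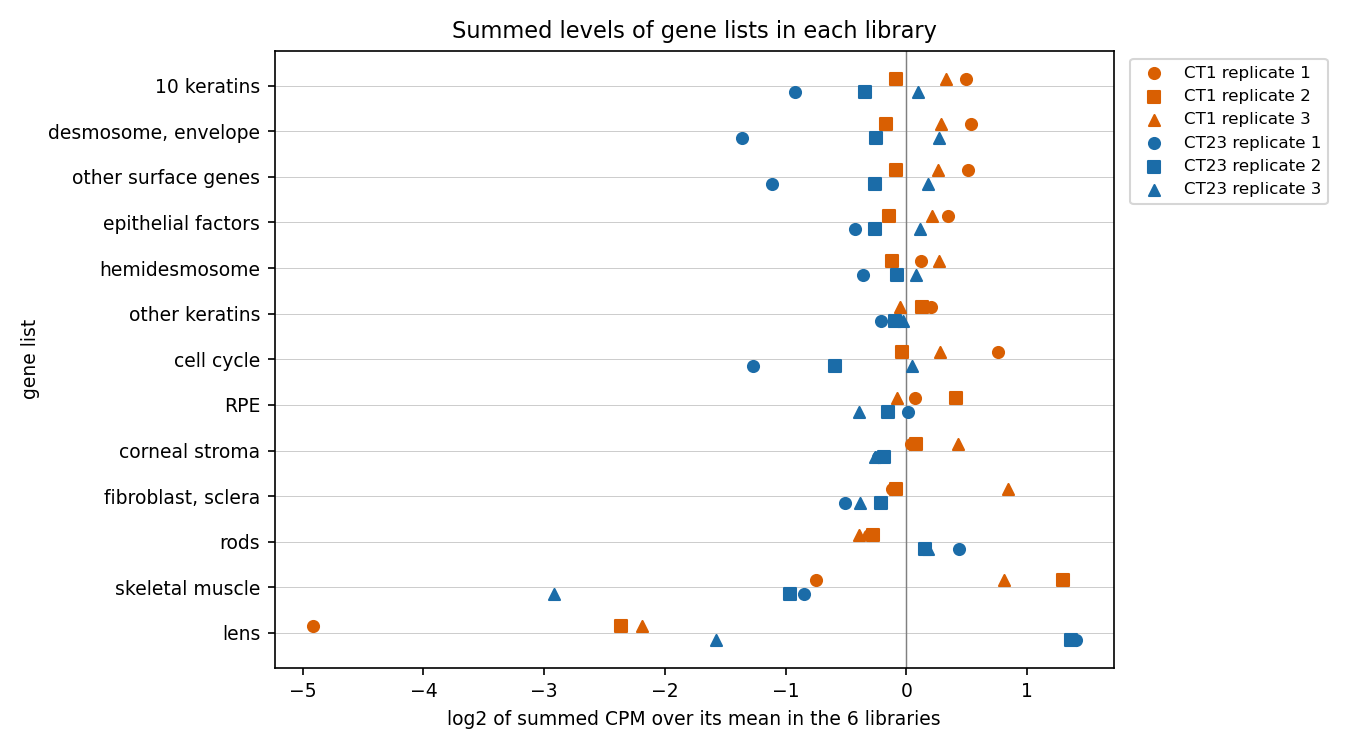
Summed CPM of each gene list in each library, as log2 over its mean in the 6 libraries, with CT1 points drawn above CT23 points in each row. The keratins, desmosome genes and other surface genes show CT23 replicate 1 (blue circle) lowest and CT1 replicate 1 (orange circle) highest. The epithelial factors, other keratins and cell cycle genes show the same. Lens sums have these 2 libraries the other way round, and RPE sums differ in order.

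Lists of other tissues did not share this order. Lens genes (12 listed) summed to 1763, 10353 and 11644 CPM in CT1 replicates 1, 2 and 3, against 140661, 136835 and 17842 CPM in CT23 replicates 1, 2 and 3, so the 2 libraries lowest in keratins were the richest in lens transcripts. Rod photoreceptor genes (11 listed) ran against the keratins as well, at 713, 730.4 and 672 CPM in CT1 replicates 1, 2 and 3, against 1194, 984 and 998 CPM in CT23 replicates 1, 2 and 3. All 11 were lower in every CT1 library than in every CT23 library, but the share of all genes lying this way was not counted. Their median log2 fold was -0.64. All 11 had an unadjusted p under 0.05, beside 21.8% of all genes in either direction, and none passed limma (smallest adjusted p = 0.0736).

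Sums of 3 further gene lists were higher in every CT1 library than in every CT23 library, which the keratin sum was not. Skeletal muscle genes (10 listed) summed to 39.6, 163 and 116 CPM in CT1 replicates 1, 2 and 3, against 36.8, 34.0 and 8.80 CPM in CT23 replicates 1, 2 and 3. All 9 tested had a fold above 0 (47.8% of all genes) and an unadjusted p under 0.05 (21.8%, either direction). None passed limma (smallest adjusted p = 0.120). Fibroblast genes (7 listed) summed to 569.9, 583 and 1111 CPM in CT1 replicates 1, 2 and 3, against 434, 535 and 473 CPM in CT23 replicates 1, 2 and 3. Genes listed for corneal stroma (6 listed) summed to 942, 972 and 1236 CPM in CT1 replicates 1, 2 and 3, against 778, 809 and 765 CPM in CT23 replicates 1, 2 and 3. Ptgds and Dcn made up most of this sum, with means of 452 and 424 CPM, and the others averaged 1.67 to 17.2 CPM. A fold above 0 was found in 5 of 6, and Angptl7 was at -0.30. Neither the fibroblast nor the stroma list had a gene past limma (smallest adjusted p = 0.108 and 0.248). Of their genes, 2 of 7 and 0 of 6 had an unadjusted p under 0.05. Kera, which encodes the corneal proteoglycan keratocan, was chosen once its values had been seen and had the lowest mean of this list (1.67 CPM). It stood at 2.04, 1.43 and 2.96 CPM in CT1 replicates 1, 2 and 3 and at 0.586, 1.38 and 1.61 CPM in CT23 replicates 1, 2 and 3. Pearson's r to the summed keratins, on log2(CPM + 1), was 0.91 for Kera and -0.15 to 0.61 for the other genes listed for corneal stroma. The part of these tissues in the keratin differences was not tested.

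Cell cycle genes followed the keratins in order. The 6 listed summed to 29.4, 16.9 and 21.1 CPM in CT1 replicates 1, 2 and 3, against 7.18, 11.5 and 18.0 CPM in CT23 replicates 1, 2 and 3. Top2a, Mki67, Cdk1 and Cenpf, the 4 tested, had log2 folds of 0.95, 0.93, 0.33 and 0.66. None passed limma (smallest adjusted p = 0.0912), and 3 of 4 had an unadjusted p under 0.05 (21.8% of all genes, either direction).

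The members were alike in profile to differing degrees. Over the 6 libraries, on log2(CPM + 1), Pearson's r between pairs of members had a median of 0.83 and ran from 0.31 (Krt6b with Krt19) to 0.99 (Krt6a with Krt6b). Krt5, Krt6a, Krt6b and Krt12 had r of 0.89 to 0.99 with each other. Krt4, Krt14, Krt17 and Krt19 had r of 0.87 to 0.97 with each other. Krt13 had the highest r to the summed members of which it is one (0.997), and Krt19 the lowest (0.61). All these points share the library totals and rest on 6 libraries, so they describe the profiles and no more.

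The 10 genes outside the set most like the summed keratins were Dennd2d, Cast, Esrp1, Rpl14-ps1, Stk24, Pycard, Upk3bl, Rgs12, Cracr2b and Sema4d, with Pearson's r of 0.995 or more over the 6 libraries among 11332 genes compared. Of those genes 4.73% had r of at least 0.9. That level was reached by 10 of 13 desmosome and envelope genes, 15 of 18 other surface genes and 4 of 9 epithelial factors. It was also reached by 2 of 4 cell cycle genes, 2 of 8 hemidesmosome genes, 1 of 6 corneal stroma genes and 0 of 6 other keratins. Of the members, each a part of the sum, 6 of 10 reached it. Upk3bl was at 83.9, 52.0 and 77.7 CPM in CT1 replicates 1, 2 and 3, against 27.1, 45.2 and 64.4 CPM in CT23 replicates 1, 2 and 3. Esrp1, an epithelial splicing regulator, was at 10.2, 6.34 and 9.48 CPM in CT1 replicates 1, 2 and 3, against 3.0, 4.99 and 7.11 CPM in CT23 replicates 1, 2 and 3. Cast, which encodes the calpain inhibitor calpastatin, was at 21.9, 17.1 and 20.1 CPM in CT1 replicates 1, 2 and 3, against 11.5, 15.1 and 18.1 CPM in CT23 replicates 1, 2 and 3.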

How the data were processed

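Expression was measured in 6 RPE-enriched libraries, 3 at CT1 and 3 at CT23, grouped by the time in the sample labels. The submitters' processing notes list edgeR 3.24.1, HTSeq, Bowtie2 2.1.0 and the build mm10 without saying what each did, and any gene filter is not stated. The deposited table holds, per the file headers, 1 column of CPM a library; the authors' log2 fold and p-value, also deposited there, were not used. The authors' CPM steps gave whole reads for 100% of values (tolerance 0.01 reads) and, from these, the library totals; the sources do not say what the totals count. The 75 entries that name no gene were left out; they held 0.0432% to 0.102% of the listed reads.

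Limma 3.58.1 with a mean-variance trend was fitted to log2(CPM + 1) of 11342 genes (mean level 1 CPM or more), with time as its factor, Benjamini-Hochberg adjustment over all of them and a two-sided threshold of 0.05. Folds on this scale understate the change of low genes. All 10 members passed the filter. The members and the gene lists were chosen with earlier results of these data known. Named genes are all members, up to 4 of each epithelial list and of the cell cycle list with the highest mean CPM, and the 10 genes nearest the summed keratins by Pearson's r. Lists of other tissues are given as sums, with Rpe65 as a check. Kera, Ptgds, Dcn, Angptl7, Trp63 and Tfap2a were named outside this rule. EdgeR 4.0.16 and DESeq2 1.42.0 were run on the recovered reads, and each tool was tested on simulated data. Promoter windows were read from a RefSeq table of build GRCm38.p6.

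Whether equal replicate numbers pair the libraries was checked from the correlation of their deviations from the time means, which was -0.25, 0.38 and -0.042 for replicates 1, 2 and 3. They were not taken as pairs.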

Additional observations from a re-analysis of the deposited data

How the results depend on the processing

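The summed keratin level had a log2 ratio, CT1 over CT23, of 0.60. It was 0.61 without Krt12 and 0.38 to 0.87 over the fits that leave out 1 library. The median member fold was 0.56, and 0.33 to 0.80 with each library left out. Without CT23 replicates 1 and 2, which leaves a lone CT23 library assumed to vary like the others, the ratio was 0.17 and the median fold 0.061; the cause was not tested. Over all genes limma called 0, and 0 to 4 with each library left out, the 4 without CT23 replicate 3. It called 98 of the 4723 genes at 5 CPM or more, where fewer genes were tested, and 360 when totals left out crystallin reads; under that setting the median of all genes was -0.17. DESeq2 called 138 and gave no adjusted p to 5937. Among the other keratins and the gene lists limma called 0, with 0 to 0 when each library was left out, against 7 at the higher filter, 18 without crystallin reads and 19 by DESeq2. With the replicate number as a block limma called 0 genes (2480 at an unadjusted p under 0.05), the block left the median member fold at 0.56, and not every library matched its own number best. Other pseudocounts, no filter on low values and TMM factors left all 10 member folds above 0. At these depths every member had at least 87 reads in each library, so the spread between libraries and not counting limits the comparison.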
